A study of Rattus norvegicus with 7 samples.

Results

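The genes described here build or act on the axis of meiotic chromosomes: the cohesin subunits Smc1b and Rec8, the synaptonemal complex genes Sycp1, Sycp2 and Sycp3, the axis protein gene Hormad1, and the recombination genes Spo11, Dmc1 and Msh4. A gene counted as measured when the platform annotation assigned a probe set to it alone. By that rule 5 of the 9 genes were measured, each by 1 probe set: Smc1b (1393742_at), Sycp1 (1387553_at), Sycp2 (1368499_at), Sycp3 (1387614_at) and Spo11 (1385994_at). Rec8, Dmc1, Msh4 and Hormad1 have no such probe set and were not analysed here. The 5 stand among 14217 genes named alone by a probe set.

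RNA from whole testes of adult male Sprague-Dawley rats had been hybridized to 7 Affymetrix Rat230_2 arrays. The groups were untreated testes (0 h, n = 3) and testes taken 8 h (n = 2) or 20 h (n = 2) after cadmium chloride, a toxicant of the testis, was given intraperitoneally at 3 mg/kg. The untreated rats are described as untreated, and no vehicle injection is mentioned for them. Arrays of 1 group are biological replicates by their labels, taken here to mean separate rats. The number of arrays limits the precision, and in whole tissue fewer cells of a type and less RNA per cell cannot be told apart.

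Meiotic prophase is the long stage in which the spermatocyte pairs its homologous chromosomes, joins them along their length and recombines them. Cohesin rings, built in meiosis with Smc1b and Rec8 in place of their mitotic counterparts, hold sister chromatids and form the axis, to which Sycp2 and Sycp3 bind as lateral elements. Sycp1 then zips the paired axes together as the transverse filament, while the breaks made by Spo11 are repaired with the strand exchange protein Dmc1 and stabilised by Msh4. In adult testis transcripts of these genes mark spermatocytes, which divide the work of the seminiferous tubule with spermatogonia, spermatids and the somatic Sertoli cells.

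The arrays had been hybridized on 3 days, which overlapped the groups in part. Day 1 held untreated replicate 1 and 20 h replicate 1, day 2 held untreated replicate 2 alone, and day 3 held the 8 h arrays, 20 h replicate 2 and untreated replicate 3. The first principal component over all probe sets kept, with 39.5% of the variance, separated day 3 (scores 19.3 to 31.1) from the other days (-39.7 to -32.9), and the actin probe sets gave 3' over 5' log2 ratios of 1.19 to 1.42 on day 3 against 0.733 to 0.985 on the others. Untreated replicate 2 had been stained at 25 °C for 600 s where the others had 35 °C for 300 s, and its experiment file names mouse as the sample type. Of the markers of testis cell types, 9 of 16 spermatocyte markers outside the 9 genes, 10 of 14 spermatid, 9 of 13 Sertoli and 8 of 8 Leydig markers had a probe set. Of these, 0 were at 0 on any array, which held for every marker list and is no test of expression. The median signal of the arrays ran from 52.9 to 72.0, and Amh, a Sertoli marker, had 43.6 to 68.1.

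Signals are on the deposited linear scale, and differences are on the scale of log2(signal + 15), which understates the change of dim genes. None of the 5 genes passed the test in any comparison with limma, whose p-values were adjusted over 20857 probe sets. This was also the share for all probe sets: 0% had an adjusted p under 0.05 at 8 h, at 20 h, between the times or for both cadmium times together. The values below therefore describe these 7 arrays.

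Smc1b, the meiotic form of a cohesin ring subunit, was the one measured gene whose 4 cadmium arrays lay above every untreated array. Its signal was 1654.7, 1827.2 and 1193.6 in untreated testes, 2083.5 and 2432.6 at 8 h, and 1945.6 and 2135.8 at 20 h. The lowest cadmium value came from 20 h replicate 1 and the highest untreated value from untreated replicate 2, so the groups did not overlap, and untreated replicate 3 stood apart at the low end. Of all probe sets 1.82% had every cadmium array above every untreated array, and 4.9% had every one below. Smc1b averaged 2149 ± 205 on the cadmium arrays (SD, n = 4) and 1558 ± 328 on the untreated arrays (SD, n = 3). The fitted log2 difference was 0.48 ± 0.16 (SE; 95% interval 0.13 to 0.83), a ratio of 1.39, with a limma adjusted p of 0.855. It was 0.55 ± 0.19 at 8 h (SE, adjusted p = 0.836) and 0.41 ± 0.19 at 20 h (SE, adjusted p = 0.999), against the same untreated arrays.

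The size of the Smc1b difference depended on untreated replicate 3. Without that array it was 0.30 (limma adjusted p = 0.301) for both times and 0.23 at 20 h, and a block for hybridization day gave 0.64 (adjusted p = 0.457) for both times. On day 3 the difference from untreated replicate 3 was 0.80 and 1.02 at 8 h and 0.83 on 20 h replicate 2. On day 1 the difference of 20 h replicate 1 from untreated replicate 1 was 0.23. Each cadmium array thus stood above the untreated array of its own day, by less on day 1 than on day 3.

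**Figure D1:**
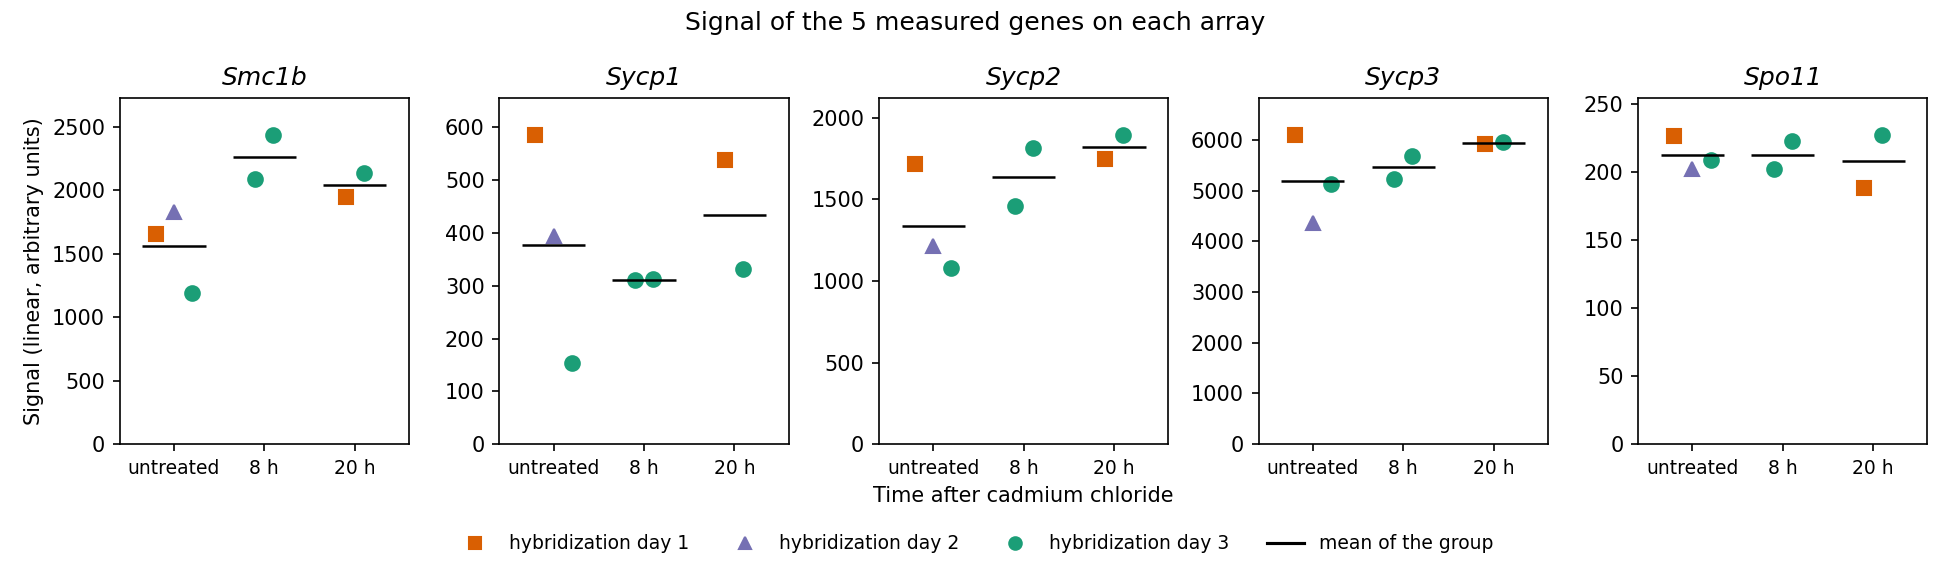
Signal (linear scale, from 0) of the 5 measured genes on each of the 7 arrays, by time after cadmium chloride, with the hybridization day as colour and marker and the group mean as a bar. The 4 cadmium arrays of Smc1b lie between 1945.6 and 2432.6, above the untreated arrays, and untreated replicate 3 is the lowest array of Smc1b, Sycp1 and Sycp2.

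Sycp2, a lateral element protein that binds Sycp3, came next in size. Its signal was 1714.5, 1215.9 and 1081.3 in untreated testes, 1460.8 and 1815.4 at 8 h, and 1747.2 and 1893.7 at 20 h. Both 20 h arrays lay above every untreated array, as did those of Smc1b, while 8 h replicate 1 fell within the untreated range. At 20 h such a gap was found for 2 of the 5 genes and for 4.65% of all probe sets; at 8 h it was found for Smc1b alone and for 7.59% of all probe sets. No gene of the 5 had all arrays of a time below the untreated ones, as 15.4% of all probe sets had at 8 h and 10.7% at 20 h. For 5 genes a count of 0 lies near these shares. Sycp2 averaged 1729 ± 189 on the cadmium arrays (SD, n = 4) and 1337 ± 334 on the untreated arrays (SD, n = 3). Its log2 difference was 0.39 ± 0.17 (SE; 95% interval 0.01 to 0.76; limma adjusted p = 0.855) for both cadmium times, 0.31 ± 0.20 (SE) at 8 h and 0.47 ± 0.20 (SE) at 20 h. The 8 h value was 0.15 without 8 h replicate 2, 0.17 without untreated replicate 3 and 0.50 without untreated replicate 1.

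The same-day values of Sycp2 differed between the days. Its untreated signal was 1714.5 on day 1 and 1081.3 on day 3, and the day and its lone untreated array cannot be told apart. The 3 cadmium arrays of day 3 exceeded untreated replicate 3 by 0.43, 0.74 and 0.80 on the log2 scale. The cadmium array of day 1 exceeded its untreated array by 0.03. With the day as a block the difference for both times was 0.40 (limma adjusted p = 0.679), and without untreated replicate 3 it was 0.25 (adjusted p = 0.448). Smc1b and Sycp2 were the 2 of 5 genes whose 4 cadmium arrays all exceeded the untreated array of their day, where 12.2% of all probe sets did so and 17.7% lay below on all 4.

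Sycp3, the main lateral element protein and the usual stain for chromosome axes in spermatocytes, varied less. Its signal was 6094.2, 4370.1 and 5125.4 in untreated testes, 5228.5 and 5688.2 at 8 h, and 5917.8 and 5964.1 at 20 h. Untreated replicates 1 and 2 held the highest and the lowest of the 7 values, so the cadmium arrays lay inside the untreated range. The means were 5700 ± 336 on the cadmium arrays (SD, n = 4) and 5197 ± 864 on the untreated arrays (SD, n = 3). The log2 difference was 0.14 ± 0.13 (SE; 95% interval -0.15 to 0.44; limma adjusted p = 0.856), and -0.01 under quantile normalization. The same-day differences ran from -0.04 on 20 h replicate 1 to 0.22 on 20 h replicate 2.

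The promoter windows of Smc1b, Sycp2 and Sycp3 are shown because Smc1b and Sycp2 had the largest differences and Sycp3, their partner on the axis, lay within its untreated range. Windows of 300 bases, 250 before and 50 after the gene start, came from RefSeq on build GRCr8 and exist here for 8 of the 9 genes, Msh4 excepted. Searched on both strands were the E-box CACGTG, the E2F core TCCCGCC, the MYB core CAACTG, the metal response elements TGCGCNC and TGCACNC, and the cAMP response core TGACGTC. Capitals mark the matches, and 0 of the 15 matches in the 8 windows overlapped another. The Smc1b window lies at chr7:118122599-118122898, minus strand, that of Sycp2 at chr3:185876443-185876742, minus strand, and that of Sycp3 at chr7:24761226-24761525, plus strand, each written along its gene.
Smc1b promoter: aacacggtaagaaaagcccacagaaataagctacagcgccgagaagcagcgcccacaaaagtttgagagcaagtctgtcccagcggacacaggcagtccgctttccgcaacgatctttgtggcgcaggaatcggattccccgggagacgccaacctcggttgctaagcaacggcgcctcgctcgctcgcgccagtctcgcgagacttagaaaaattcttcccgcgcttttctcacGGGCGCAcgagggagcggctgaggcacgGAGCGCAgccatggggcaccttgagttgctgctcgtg
Sycp2 promoter: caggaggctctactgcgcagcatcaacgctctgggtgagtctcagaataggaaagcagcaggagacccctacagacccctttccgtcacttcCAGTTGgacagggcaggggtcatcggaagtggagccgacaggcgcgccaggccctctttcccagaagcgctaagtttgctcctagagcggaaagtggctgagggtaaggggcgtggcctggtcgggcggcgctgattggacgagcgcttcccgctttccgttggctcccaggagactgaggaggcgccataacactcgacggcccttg
Sycp3 promoter: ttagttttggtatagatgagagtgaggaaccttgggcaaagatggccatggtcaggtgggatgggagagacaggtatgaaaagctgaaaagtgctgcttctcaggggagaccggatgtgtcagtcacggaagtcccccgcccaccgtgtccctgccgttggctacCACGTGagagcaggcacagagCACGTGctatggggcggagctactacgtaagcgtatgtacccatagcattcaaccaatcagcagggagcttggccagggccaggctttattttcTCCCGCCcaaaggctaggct

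The Smc1b window held the metal response form TGCGCNC, bound by the metal sensor Mtf1, at positions -15 and 14 from the gene start, both on the opposite strand. The Spo11 window held 2 matches to it as well, and any part of the matches in the signals was not tested. That form was in 2 of the 8 windows and in 14.1% of 33469 promoters, and the form TGCACNC was in 3 of 8 (Sycp1, Rec8 and Dmc1) and in 12.2%. The Sycp2 window held 1 MYB core, at -158, a motif found in 2 of 8 windows and 13.9% of all promoters. MYB cores are read in spermatocytes by Mybl1, the A-MYB factor that drives many pachytene genes in mouse. The Sycp3 window held E-boxes at -85 and -64 and an E2F core at 31. The E-box was in 2 of 8 windows (Sycp3 and Hormad1) and 6.42% of all promoters, and the E2F core in 3 of 8 and 10.5%. In mouse both motifs are bound by the complex of E2f6, Mga and Max, which keeps germline genes silent in somatic cells. The cAMP response core was in 0 of 8 windows and 3.22% of all promoters. A match is letters in a window and not a tested site.

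Sycp1, the transverse filament that closes the synaptonemal complex, varied most. Its signal was 585.6, 394.8 and 154.3 in untreated testes, 310.2 and 313.0 at 8 h, and 538.5 and 331.7 at 20 h. The highest untreated value was 3.8 times the lowest, a range that exceeded that of 98.2% of all probe sets kept. Both day 1 arrays stood above the other 5 arrays, a pattern found in 13% of all probe sets, and untreated replicate 3 stood below all others. The means were 373.4 ± 110 on the cadmium arrays (SD, n = 4) and 378.2 ± 216 on the untreated arrays (SD, n = 3). The log2 difference was 0.13 ± 0.37 (SE; 95% interval -0.71 to 0.96; limma adjusted p = 0.95).

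The fitted direction of Sycp1 depended on which arrays were set side by side. It was -0.09 ± 0.44 (SE) at 8 h (0.02 after scaling to one 75th percentile) and 0.34 ± 0.44 (SE) at 20 h. The 3 cadmium arrays of day 3 lay above untreated replicate 3 by 0.94, 0.95 and 1.03, while 20 h replicate 1 had -0.12 against untreated replicate 1. With the day as a block the 8 h difference was 0.66 (limma adjusted p = 0.806), and without untreated replicate 3 the difference of both times was -0.39 (adjusted p = 0.40).

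Spo11, the topoisomerase-like protein that makes the breaks from which crossovers arise, was the most even of the 5. Its signal was 226.5, 202.7 and 209.1 in untreated testes, 202.0 and 223.0 at 8 h, and 188.7 and 227.3 at 20 h. The 20 h arrays held the lowest and the highest of the 7 values, so the groups overlapped wholly. The means were 210.2 ± 18.1 on the cadmium arrays (SD, n = 4) and 212.8 ± 12.3 on the untreated arrays (SD, n = 3). The log2 difference was -0.02 ± 0.15 (SE; 95% interval -0.35 to 0.31; limma adjusted p = 0.983), and 0.07 under quantile normalization. Its SD within groups, 0.114 on the log2 scale, was larger than that of 9.1% of all probe sets kept, whose median was 0.268, and the SD of Sycp1, 0.704, was larger than that of 94.9%.

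**Figure D2:**
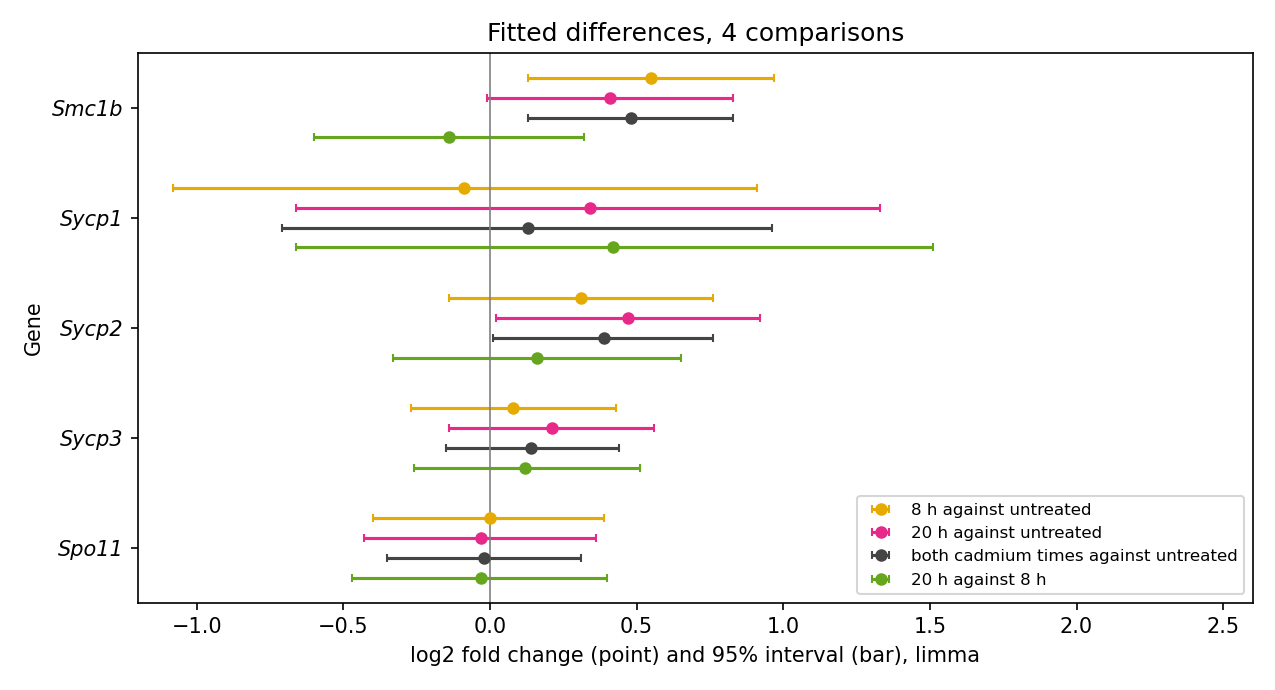
Fitted log2 fold change (x axis, point) with its 95% interval (bar) for the 5 measured genes (y axis) in 4 comparisons of the limma fit. The interval of Smc1b for both cadmium times runs from 0.13 to 0.83, those of Sycp3 and Spo11 include 0 in all 4 comparisons, and those of Sycp1 are the widest.

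Over the 5 genes the median log2 difference was 0.14 for both cadmium times, 0.08 at 8 h and 0.34 at 20 h. Over all probe sets the medians were -0.07 for both times, -0.08 at 8 h and -0.05 at 20 h. With the filter at the 60th percentile, which keeps brighter probe sets, they were -0.03, -0.03 and -0.02. Values above 0 were found for 4 of 5 genes with both times together, where 38.1% of all probe sets lay above 0. At 8 h it was 3 of 5 against 39%, and at 20 h 4 of 5 against 41.2%. Scaling to one 75th percentile gave 5 of 5 in each of these comparisons, as did leaving out untreated replicate 1. The medians of all probe sets were then 0.02 at 8 h and 0 at 20 h and for both times with that scaling. Without untreated replicate 1 they were -0.05 at 8 h, -0.03 at 20 h and -0.05 for both times. The shares of all probe sets above 0 were not computed for these settings. Without untreated replicate 3 the count above 0 was 3 of 5 in each comparison, and on day 1 alone 2 of 5 at 20 h. These comparisons share their untreated arrays. At an unadjusted p under 0.05 with limma, Smc1b was counted at 8 h (1.16% of all probe sets were higher at that level), Sycp2 at 20 h (0.767%), and both with the times together (1.23%). None of the 5 was counted as lower at that level in the main fit, as 4.06% of all probe sets were at 8 h, 2.34% at 20 h and 3.67% with the times together. Without 8 h replicate 2 neither gene was counted at 8 h or with the times together. At 20 h Sycp2 was no longer counted without untreated replicate 3, without any 1 of the 4 cadmium arrays, under quantile normalization or without the intensity trend. Sycp2 was also not counted at 20 h with the replicate number as a block. With untreated replicate 3 left out, or the replicate number as a block, 2 of the 5 genes were counted at 8 h. These were Smc1b, which was higher, and Sycp1, which was lower at -0.60 in both settings. With the hybridization day as a block the same 2 genes were counted at 8 h, but both as higher, Smc1b at 0.76 and Sycp1 at 0.66. Without untreated replicate 1 also 2 of the 5 were counted at 8 h, where 5 of 5 lay above 0. The 8 h median of the 5 genes was 0.31 without untreated replicate 1, 0.03 without untreated replicate 2, 0.14 without 8 h replicate 1 and 0.02 without 8 h replicate 2. The 20 h median was 0.20 without untreated replicate 3 and 0.21 without 20 h replicate 1. The median for both times was 0.40 with the day as a block, 0.69 within day 3, 0.52 without untreated replicate 1, 0.25 without untreated replicate 2 and 0.29 without 20 h replicate 2.

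No difference between the cadmium times passed the test. Both 20 h arrays stood above both 8 h arrays for Sycp1 and Sycp3, 2 of 5 genes, where 15.2% of all probe sets did so and 13.2% had both below. The log2 difference of 20 h from 8 h was 0.42 ± 0.48 (SE; 95% interval -0.66 to 1.51) for Sycp1 and 0.12 ± 0.17 (SE; -0.26 to 0.51) for Sycp3. That of Sycp1 was 0.09 without 20 h replicate 1, 0.76 without 20 h replicate 2. A block for hybridization day gave -0.20 for it. It was -0.14 ± 0.21 (SE; -0.60 to 0.32) for Smc1b, 0.16 ± 0.22 (SE; -0.33 to 0.65) for Sycp2 and -0.03 ± 0.19 (SE; -0.47 to 0.40) for Spo11. The limma adjusted p was 1 for each.

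The untreated arrays differed among themselves for these genes. Untreated replicate 3 was the lowest of the 7 arrays for Smc1b, Sycp1 and Sycp2, 3 of the 5 genes, where it was the lowest for 18.9% of all probe sets. Relative to its own mean over the arrays, it lay at -0.63 for Smc1b, -1.11 for Sycp1 and -0.50 for Sycp2, but at -0.09 for Sycp3 and -0.01 for Spo11. It was the sole untreated array of day 3, against which 3 of the 4 cadmium arrays were compared. The median same-day difference of the 5 genes was 0.43 and 0.74 for the 8 h arrays and 0.80 for 20 h replicate 2. For 20 h replicate 1, compared with untreated replicate 1, it was -0.04.

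**Figure D3:**
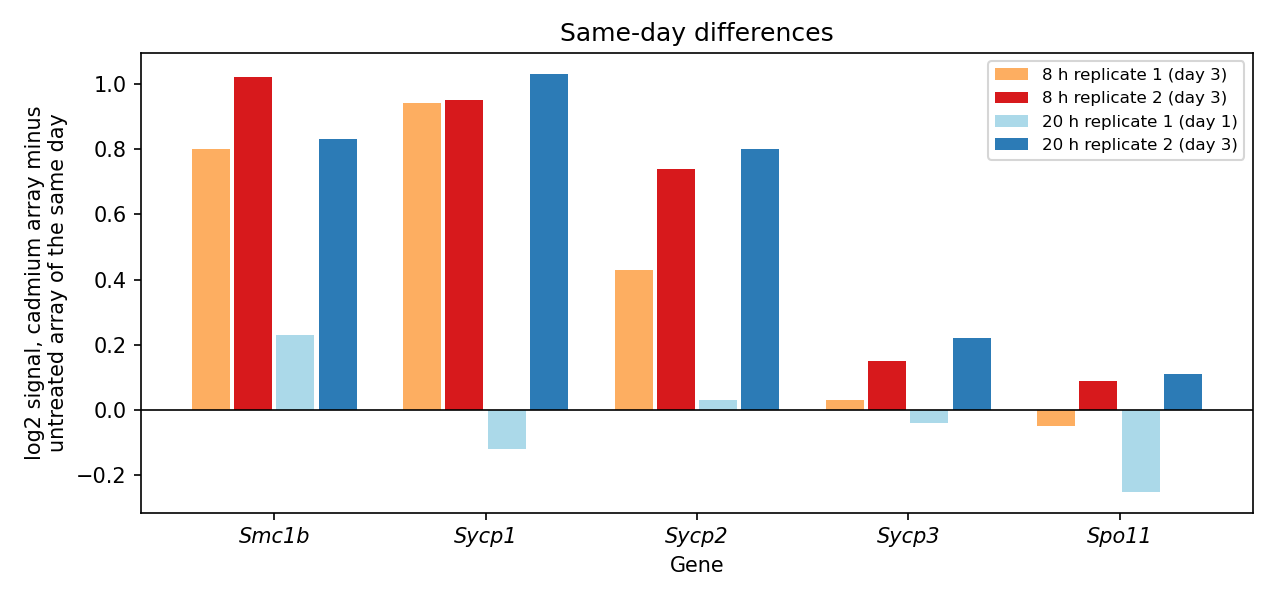
Same-day log2 difference, each cadmium array over its day's untreated array (y axis), for the 5 measured genes (x axis), 1 bar for each of the 4 cadmium arrays. The day 3 bars of Smc1b, Sycp1 and Sycp2 run from 0.43 to 1.03, while the day 1 bars of the 5 genes run from -0.25 to 0.23.

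The summed signal of spermatocyte markers outside the 9 genes (9 of 16 measured) ran from 39286 to 47044 on the cadmium arrays and from 36831 to 43746 on the untreated arrays, with the highest untreated sum on untreated replicate 3. That of spermatid markers (10 of 14) ran from 111193 to 159363 on the cadmium arrays and from 104901 to 157803 on the untreated arrays, and was at least 150836 on the 4 arrays of day 3. The brightest markers weigh most in these sums. Most markers of both lists were higher on untreated replicate 3 than on the other untreated arrays. The exceptions were Piwil2, Hspa2 and Aurkc among the spermatocyte markers and Acrv1 among the spermatid markers. Hspa2 had 5272.8 on untreated replicate 3, its lowest of the 7 arrays, and Acrv1 had 2279.2 there, also its lowest. Within the days, the median difference of the spermatocyte markers was 0.07 and 0.00 on the 8 h arrays and 0.03 and -0.02 on the 20 h arrays. Endothelial markers (8 of 9 measured) summed to 294.9 to 651.0 on the cadmium arrays and 664.1 to 767.7 on the untreated arrays. Within the days, their median difference was -0.58 and -0.10 on 8 h replicates 1 and 2, and -1.29 and 0.02 on 20 h replicates 1 and 2. The lowest sum of Leydig markers, 2624.7, was on 20 h replicate 1, the others having at least 6188.4. The part that cell make-up, RNA quality or hybridization day had in the values of the 5 genes was not tested.

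Other genes of the same machinery gave values on both sides of 0. The lists hold genes of each role and some that act beside it. In each of the 4 comparisons 0 genes of any list passed the limma test in either direction, as 0% of all probe sets did. Among 17 other cohesin subunits and regulators tested, 7 were higher and 10 lower on the cadmium arrays, with a median log2 difference of -0.04. Of all probe sets 38.1% were higher, with a median of -0.07, and the counts of the other lists below stand beside the same share. Sgo1, which shields cohesin at centromeres, had the lowest value, -0.46 ± 0.26 (SE), followed by Stag2, a mitotic cohesin subunit, at -0.33 ± 0.21 (SE). Sgo1 was dim, with signals from 32.7 to 73.8. Cdca5, which stabilises cohesin on chromatin, had 0.10 ± 0.12 (SE), and Pds5b, a cohesin regulator, 0.09 ± 0.13 (SE). Stag3 and Smc3, partners of Smc1b in the meiotic ring that were picked after their values were seen, had 0.09 ± 0.10 (SE) and -0.01 ± 0.11 (SE). The signal of Stag3 was 3284.3, 2945.7 and 3131.0 in untreated testes, 3176.7 and 3363.1 at 8 h, and 3387.1 and 3317.1 at 20 h, with untreated replicate 3 inside the range of the other untreated arrays.

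Among 23 other recombination genes tested, 14 were higher and 9 lower, with a median of 0.04. Blm, a helicase that unwinds recombination intermediates, had the highest value, 0.39 ± 0.15 (SE; limma adjusted p = 0.855). Its signal was 499.3, 446.0 and 337.0 in untreated testes, 538.2 and 530.9 at 8 h, and 567.7 and 598.4 at 20 h. Like Smc1b it was lowest on untreated replicate 3 and had its 4 cadmium arrays above the untreated ones, the 1 gene of 23 to do so, where 1.82% of all probe sets did. Mnd1, a partner of Dmc1 in strand exchange, had 0.27 ± 0.21 (SE). At the low end was Msh5, the partner of Msh4, with -0.27 ± 0.46 (SE). Its signal was dim: 93.2, 60.5 and 30.5 in untreated testes, 63.8 and 58.1 at 8 h, and 76.4 and 9.3 at 20 h. The value on 20 h replicate 2 lay below the 15 added before the log.

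Of 6 other genes tested from the list of synaptonemal complex and axis genes, 2 were higher and 4 lower, with a median of -0.06. The 6 were Syce3, Trip13, Sun1, Sun2, Kash5 and Lmna, so the list reaches to the nuclear envelope. Its count and median do not describe the complex and the axis alone. Syce3, a central element protein, had 0.29 ± 0.16 (SE) and Lmna, a nuclear lamin, 0.09 ± 0.16 (SE). Trip13, which removes Hormad1 from synapsed axes, had -0.22 ± 0.29 (SE), and Sun2, a nuclear envelope protein, -0.10 ± 0.14 (SE). Syce3 was highest among the untreated arrays on untreated replicate 3, at 483.1, unlike Sycp1, which joins it in the same complex.

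Of 9 regulators of meiotic entry and transcription tested, 6 were higher and 3 lower, with a median of 0.05. Tcfl5, a spermatocyte transcription factor, had 0.30 ± 0.14 (SE), and Crem, a cAMP-responsive factor of spermatids, 0.26 ± 0.12 (SE). Sohlh1, a spermatogonial factor, had -0.40 ± 0.28 (SE) and Mga, the repressor subunit named above, -0.35 ± 0.30 (SE). Sohlh1 was dim, with signals from 26.7 to 81.0. Apart from Stag3 and Smc3, the genes named from these lists were taken from the 2 lowest and the 2 highest values of each.

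**Figure D4:**
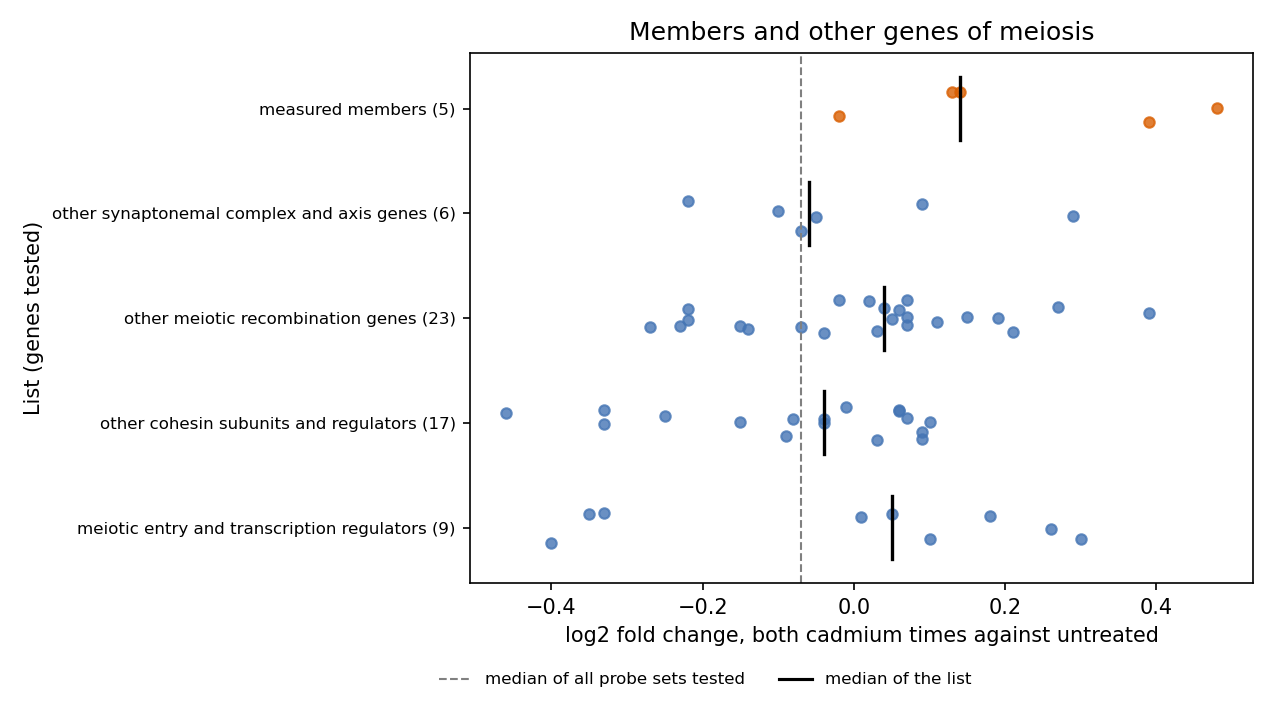
Log2 fold change of both cadmium times against untreated (x axis) for each measured gene of the 9 and for each tested gene of 4 other lists (y axis, with the number tested); black bars are list medians and the dashed line the median of all probe sets, -0.07. Smc1b (0.48) and Sycp2 (0.39) lie at the right end with Blm (0.39), and the medians of the other lists run from -0.06 to 0.05.

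By the root mean square difference of log2 values centred over the 7 arrays, the measured genes differed in how alike their profiles were. Sycp3 and Spo11 were the nearest pair, at 0.148, followed by Sycp2 and Sycp3 at 0.183 and Smc1b and Sycp2 at 0.213, while Sycp1 and Spo11 lay farthest apart, at 0.573. This measure is small for any genes that vary little. Sycp3 and Spo11 had the lowest SD within groups of the 5, 0.175 and 0.114. On 20 h replicate 1 their centred values had opposite signs, 0.12 and -0.15. Over the same arrays and 11547 other genes, the nearest to the mean profile of the 5 were Cspp1 (0.053), Ift74 (0.061) and Slc16a7 (0.071). Cspp1 and Ift74 encode proteins of cilia and centrosomes and Slc16a7 a transporter of monocarboxylates. The gene nearest to each member alone was Zfp455l1 for Smc1b (0.087), Micu3 for Sycp1 (0.108), Cep350 for Sycp2 (0.077), Nsmce3 for Sycp3 (0.031) and Srp14 for Spo11 (0.033). The profiles share the hybridization days and untreated replicate 3: Micu3 had 72.8 on that array and 264.2 and 179.6 on the other untreated arrays. None of these 8 genes passed the limma test for both cadmium times, with adjusted p from 0.855 to 0.97.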

How the data were processed

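The deposited table holds linear signal intensity for every probe set, which the authors made with MAS 5.0; GeneSpring 7.2 is named beside it in the design text of the series. A mean trimmed by 2% at both ends was 250.1 on every array. Experiment files hold other information, namely settings, per the file headers; the day, stain and array type were read from them. Of 31099 probe sets 57 are controls; of the rest, 20826 name 1 gene, 436 several and 9780 none here. Probe sets above the 40th percentile of their array on at least 2 arrays were kept (20857, all 5 of the members included). No further normalization was applied. The value 15 added before the log is the 20th percentile of all values.

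The 3 groups were fitted together with limma 3.58.1 under R 4.3.3 (eBayes with an intensity trend, 4 residual degrees of freedom), with Benjamini-Hochberg adjustment over all probe sets kept and a threshold of 0.05. Levels, same-day differences and motifs were computed in Python 3.11.15. The fit was run on simulated data with independent noise of equal spread and no hybridization days. That checks the calculation and not how well the model suits these arrays. Alternatives covered the value added, filter, scaling, trend, day, replicate number and each array left out. The text names all members, the 2 highest and 2 lowest genes of each list (1 of them is not reported here) and the nearest profiles. Members and lists were chosen with earlier results of these data known. No genome build is given for the probe sets, so they have no coordinates here.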

Additional observations from a re-analysis of the deposited data

Results flagged for a closer look

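Over the 4 cadmium arrays, Sycp1 on 20 h replicate 1 stood apart at 538.5, where the other 3 arrays had 310.2, 313.0 and 331.7. The gap to its nearest neighbour was 0.906 of the range of the 4 arrays, above the 95% critical value of Dixon's test for 4 values, which here treats both times as 1 group. That array was hybridized on day 1 with untreated replicate 1, which had 585.6. Of 29 genes screened this way 1 was flagged, where chance flags about 1 in 20.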

How the results depend on the processing

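No probe set of the 5 genes passed under any alternative, with limma adjusted p for Smc1b in both cadmium times from 0.121 to 1. The log2 differences of Smc1b and Sycp2 kept their direction in 69 of 69 alternative values each, over 4 comparisons. These values are not separate checks, since the settings and the comparisons share arrays. Sycp2 between the times came as low as 0.0 after rounding and was still counted as kept. For both times Smc1b ran from 0.30 to 0.87 and Sycp2 from 0.25 to 0.69. The direction of Sycp1 turned in 12 of 69 values, of Sycp3 in 4 and of Spo11 in 20, and the causes were not tested. Quantile normalization gave Sycp3 -0.13 at 8 h and -0.01 for both times, and Spo11 0.11 at 8 h, 0.03 at 20 h and 0.07 for both times. Scaling to one 75th percentile gave Sycp1 0.02 at 8 h, and Spo11 0.10 at 8 h, 0.02 at 20 h and 0.06 for both times. The hybridization day as a block gave Sycp1 0.66 at 8 h and -0.20 between the times, Spo11 0.00 between the times, and a median of the 5 genes of 0.39 at 8 h and 0.40 for both times.

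Day 3 alone, with 4 arrays and 1 residual degree of freedom, gave medians of 0.58 at 8 h, 0.80 at 20 h and 0.69 for both times, Sycp1 0.95 at 8 h, and Spo11 0.02 at 8 h, 0.11 at 20 h, 0.09 between the times and 0.07 for both. There 8, 2 and 10 probe sets passed at 8 h, at 20 h and for both times, where 0 passed on all arrays (1088, 648 and 1022 at an unadjusted p under 0.05). Day 1 alone, 1 array against 1 with no test, gave at 20 h a median of -0.04, Sycp1 -0.12 and Sycp3 -0.04.

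With each array left out in turn, the count of probe sets passing ran from 0 to 1 at 8 h, 0 to 8 at 20 h (8 without 20 h replicate 2), 0 to 1 between the times and 0 to 1 for both. The counts of 1 came without 8 h replicate 2 or, between the times, also without 20 h replicate 2. A lone array left in a group is assumed to vary like the others. Sycp1 ran from -0.60 to 0.31 at 8 h, -0.18 to 0.73 at 20 h and -0.39 to 0.52 for both times. Sycp3 ran from -0.04 to 0.20 at 8 h, and Spo11 from -0.07 to 0.06 at 8 h, -0.16 to 0.09 at 20 h, -0.16 to 0.09 between the times and -0.08 to 0.04 for both. The median of the 5 genes ran from 0.02 to 0.31 at 8 h, 0.20 to 0.46 at 20 h and 0.12 to 0.52 for both times.

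The replicate numbers were not taken as pairs: replicate 1 minus replicate 2 correlated at -0.02, 0.08 and 0.17 between groups, across 11552 genes that are not independent. The replicate block gave Sycp1 -0.60 at 8 h, -0.18 at 20 h and -0.39 for both times. It gave Smc1b 0.30 and Sycp2 0.25 for both times, and 0 probe sets that passed. Each member has 1 probe set, so averaging the probe sets of a gene changed nothing and was not run.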
